A study of Arabidopsis thaliana with 8 samples.

Results

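A group of 31 Arabidopsis genes had low transcript signals in rosette leaves of both flu mutant lines. The flu mutant lacks a brake on chlorophyll synthesis. Members were chosen by their own values: the difference of line means on the log2(signal + 16) scale had to be -1.5 or less in flu against WT Col and also in flu over-tAPX against over-tAPX. A probe set, the set of short oligonucleotides on the array that reads a transcript, had to map to 1 gene and to average a signal of at least 150 in WT Col. PORB and symbols of several families (UGT, CYP, XTH, EXP, scpl, BGLU, CRR, LPA, LHCB) were left out. Of 13350 genes named by a probe set of 1 gene, 6045 met the criteria on naming and signal, through 6102 probe sets. The first difference was -1.5 or less in 62 of these probe sets (1.02%), the second in 215 (3.52%) and both in 31 (0.508%). These shares and all differences of the members between flu and non-flu lines describe the choice, and no test was made of them.

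The data are 8 Affymetrix ATH1 arrays, with 2 arrays for each of 4 lines. The lines were flu (the insertion allele SAIL_136_E05), flu over-tAPX 14-2 (the same allele with extra thylakoidal ascorbate peroxidase), WT Col, and over-tAPX 14-2 (the transgene in Col). Each mutation or transgene is thus represented by a single allele or a single line, and the labels do not name the promoter of the transgene. Plants were 3 weeks old, had been raised under constant illumination in soil, and were harvested 2 h after light ended a dark period of 8 h. For all arrays the labels give a light intensity of 90, in mmol per square metre and second as written. Each array received RNA pooled over 3 of 6 experiments, with at least 10 plants of a line in each, so the 2 arrays of a line are pools and their spread does not show that of single harvests. The free-text sample descriptions give another accession, genotype or time for some arrays, and the titles were followed. The arrays hold no time point from the dark period, so differences already present in darkness cannot be told apart from those that arose in the light.

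FLU acts in the chloroplast as a negative regulator of the pathway to protochlorophyllide, the precursor that light converts on the way to chlorophyll. In flu plants the free precursor accumulates in darkness and passes energy to oxygen when light returns, which yields singlet oxygen inside the plastid. Signals from the plastid then change the expression of nuclear genes, and flu plants moved from darkness to light are known for arrested growth. Thylakoidal ascorbate peroxidase removes hydrogen peroxide, another reactive oxygen species, at the photosynthetic membrane.

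Signals are MAS5 values on a linear scale, in which each array is multiplied by 1 factor, and array medians lay between 153 and 166. The transgene was clear on the arrays: TAPX, the gene of the enzyme, had 22703 and 23222 in flu over-tAPX, against 1656 and 1729 in flu, and 22960 and 22043 in over-tAPX, against 2558 and 3115 in WT Col. RCA and PRK, which encode the activase of Rubisco and a kinase of the Calvin cycle, were the measured ones of 9 mesophyll markers. Their summed signal was 39581 and 44616 in flu and 34876 and 45415 in flu over-tAPX, against 50926 and 52248 in WT Col and 49823 and 50949 in over-tAPX. GC1, the measured one of 6 guard cell markers, had 1515 and 967 in flu and 1840 and 494 in flu over-tAPX, against 1439 and 886 in WT Col and 1599 and 1768 in over-tAPX. The lists for epidermis, trichomes, vasculature and dividing cells had 0 genes with a named probe set. The mesophyll sum was lower on every array of the flu lines than on any array of the other lines. It was PRK that separated (12386 and 15000.4 in flu and 9985 and 14193 in flu over-tAPX, against 19189.8 and 23031 in WT Col and 20834 and 20482 in over-tAPX), while RCA overlapped. The part of these markers in the values of the 31 genes was not tested. In whole leaves, fewer cells of a type and less RNA per cell cannot be told apart.

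The signals of the 31 genes by array do not overlap between flu and non-flu lines. On every one of them the highest of the 4 flu and flu over-tAPX arrays lay below the lowest of the 4 WT Col and over-tAPX arrays, which was so for 31.2% of the eligible probe sets and which the choice of members favours. The members' mean signals ran from 15.5 to 909 in flu (median 224) and from 21.5 to 871 in flu over-tAPX (median 174). In WT Col they ran from 164 to 2805 (median 946) and in over-tAPX from 159.9 to 3439 (median 829.8). Signal in flu was 6.15% to 35.2% of that in WT Col, with a median of 27.9%, and in flu over-tAPX it was 8.21% to 33.3% of that in over-tAPX, with a median of 22.9%. The brightest eligible probe set averaged 37001 in WT Col, far above any of the 31.

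**Figure D1:**
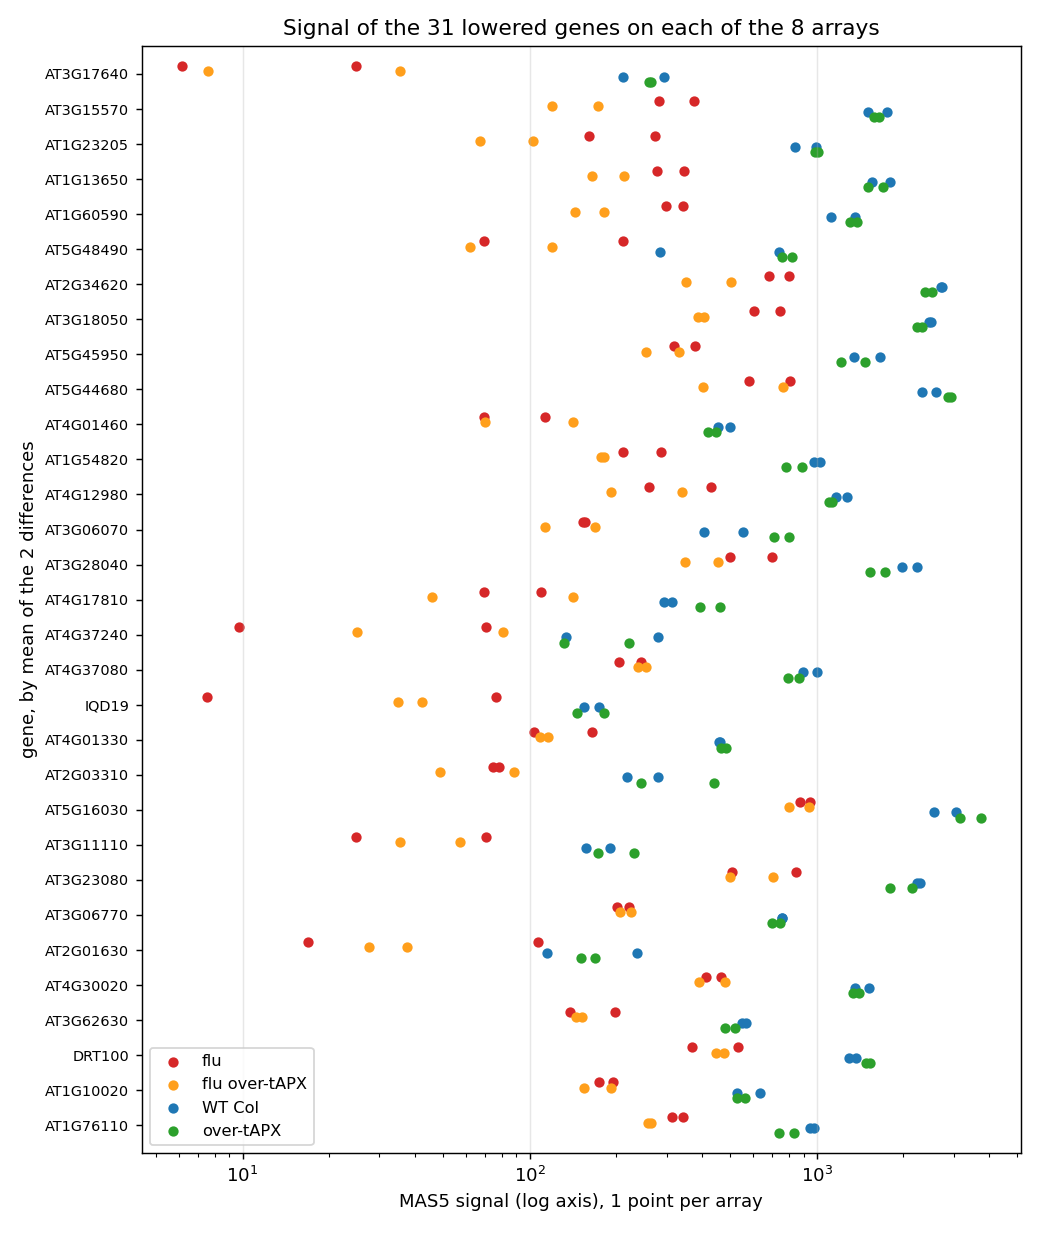
MAS5 signal (log axis) of each of the 31 genes on each array, 1 point per array, with genes ordered from the lowest mean of the 2 log2 differences at the top. The red and orange points of flu and flu over-tAPX lie left of the blue and green points of WT Col and over-tAPX in every row, with the narrowest gap for AT2G01630.

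Families that act on the cell wall held 4 of the genes. The roles given here and below are general knowledge of each family and no result. AT1G23205 belongs to the family of invertase and pectin methylesterase inhibitors, proteins that hold back enzymes of sugar cleavage or pectin change. It had signals of 273 and 161 in flu, against 838 and 995 in WT Col. In the plants with the transgene it had 67.0 and 103 in flu over-tAPX, against 986 and 1015 in over-tAPX. The log2 differences were -2.04 in flu and -3.35 in flu over-tAPX, the second being the lowest of all eligible probe sets in that comparison.

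AT1G60590 and AT3G06770 belong to the pectin lyase-like fold, which includes polygalacturonases that cut pectin. AT1G60590 had 341 and 299.7 in flu, against 1124 and 1362 in WT Col, and 145 and 182 in flu over-tAPX, against 1306 and 1386 in over-tAPX. Its log2 differences were -1.90 in flu and -2.93 in flu over-tAPX. AT3G06770 had 201 and 222 in flu, against 759 and 759.7 in WT Col, and 225 and 207 in flu over-tAPX, against 746 and 700.1 in over-tAPX, so that its 2 differences of -1.77 and -1.67 were nearly alike. AT2G01630, of the family of beta-1,3-glucanases, was dim and uneven with 107 and 16.9 in flu, against 115 and 236 in WT Col, and 37.4 and 27.6 in flu over-tAPX, against 151 and 169 in over-tAPX. One flu array of AT2G01630 nearly reached the lower WT Col array, the closest approach among the 31: the lowest array of the non-flu lines was 1.08 times the highest array of the flu lines.

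Proteins of the apoplast and of lipid handling came next. AT4G30020, a protease of the subtilase family, had 464 and 410.1 in flu, against 1365 and 1523 in WT Col, and 478 and 389 in flu over-tAPX, against 1342 and 1402 in over-tAPX. AT5G48490, a lipid transfer protein resembling DIR1 of systemic immunity, had 211 and 69.5 in flu, against 739 and 284 in WT Col, and 119 and 61.9 in flu over-tAPX, against 757 and 821 in over-tAPX. Its WT Col arrays differed more than its over-tAPX arrays, and its differences were -1.77 in flu and -2.97 in flu over-tAPX.

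AT5G45950, a GDSL-type lipase or esterase, had 378 and 317 in flu, against 1351 and 1666 in WT Col, and 332 and 254 in flu over-tAPX, against 1479.6 and 1216 in over-tAPX, with differences of -2.06 in flu and -2.15 in flu over-tAPX. AT3G23080 has a START domain, a fold that binds lipids, and had 509 and 844 in flu, against 2244 and 2286 in WT Col, and 499 and 707 in flu over-tAPX, against 2142 and 1801 in over-tAPX. All arrays of the flu lines were below all others for these 4 genes, and the gap was narrowest for AT5G48490, at a ratio of 1.34.

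Genes for leucine-rich repeat proteins and protein kinases made up 5 of the 31. AT3G17640, a leucine-rich repeat protein, stood lowest by the mean of both differences. It had 6.15 and 24.9 in flu, against 293 and 212 in WT Col, and 35.5 and 7.59 in flu over-tAPX, against 264 and 261 in over-tAPX. Its signals in both flu lines are far below the array medians, so its differences of -3.14 and -3.00 depend on the pseudocount: with 1 in place of 16 they were -4.20 and -3.90, and with 64 they were -1.99 and -1.95.

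AT3G28040, a receptor-like kinase with leucine-rich repeats, had 499 and 698 in flu, against 1979 and 2235 in WT Col, and 348 and 453 in flu over-tAPX, against 1731 and 1533 in over-tAPX. AT1G54820, of the protein kinase family, had 286 and 212 in flu, against 981 and 1028 in WT Col, and 177 and 182 in flu over-tAPX, against 889 and 779 in over-tAPX. On the flu side of both genes the flu over-tAPX arrays were below the flu arrays, and on the other side the over-tAPX arrays were below the WT Col arrays. AT4G01330, another protein kinase, had 104 and 165 in flu, against 460.5 and 458 in WT Col, and 109 and 116 in flu over-tAPX, against 463 and 483 in over-tAPX. DRT100, named for tolerance of DNA damage and known as a leucine-rich repeat protein, had 531 and 369 in flu, against 1299 and 1370.2 in WT Col, and 446 and 476 in flu over-tAPX, against 1532 and 1485 in over-tAPX. DRT100 and AT4G01330 showed the opposite order on the non-flu side, with both over-tAPX arrays above both WT Col arrays.

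Families that regulate transcription, protein turnover or signalling held 6 of the genes. AT3G15570 belongs to the NPH3 family, whose founding member carries signals from the blue-light receptors that direct growth toward light. It had 283 and 374 in flu, against 1515 and 1756 in WT Col. With the transgene it had 119.9 and 173 in flu over-tAPX, against 1587 and 1647 in over-tAPX. Signal in flu was thus 20.1% of WT Col and in flu over-tAPX 9.04% of over-tAPX, a log2 difference of -2.27 and one of -3.35.

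AT4G01460, a transcription factor of the bHLH class, had 113 and 69.6 in flu, against 500.3 and 452 in WT Col, and 70.1 and 141 in flu over-tAPX, against 418 and 446 in over-tAPX. Its differences were -2.23 in flu and -1.94 in flu over-tAPX. Unlike in AT3G15570, the larger size of difference was thus in flu, but the flu and flu over-tAPX arrays of AT4G01460 overlapped. AT4G17810, a C2H2 zinc finger protein, had 109 and 69.2 in flu, against 312 and 293 in WT Col, and 141 and 45.9 in flu over-tAPX, against 459.9 and 394 in over-tAPX. AT1G76110, with an HMG box and an ARID domain that bind DNA, had 314 and 344 in flu, against 982 and 946 in WT Col, and 265 and 259 in flu over-tAPX, against 837 and 737 in over-tAPX. Its arrays were tight within each line, yet at -1.51 and -1.53 it was the member nearest the threshold.

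IQD19, of a family that binds calmodulin, had 7.53 and 76.2 in flu, against 174 and 155 in WT Col, and 34.8 and 42.1 in flu over-tAPX, against 181 and 147 in over-tAPX. AT3G11110, a RING-type ubiquitin ligase, had 70.4 and 24.8 in flu, against 189.9 and 157 in WT Col, and 57.1 and 35.4 in flu over-tAPX, against 173 and 231 in over-tAPX. For both genes the 2 flu arrays were further apart from each other than the 2 WT Col arrays.

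AT4G12980, whose family joins a DOMON domain to cytochrome b561 and moves electrons across membranes, had 260.3 and 427 in flu, against 1164 and 1276 in WT Col, and 192 and 339 in flu over-tAPX, against 1133 and 1109 in over-tAPX. AT2G34620 belongs to the mTERF family, which acts in gene expression of mitochondria and plastids. It had 802 and 684 in flu, against 2702 and 2733 in WT Col, and 501 and 351 in flu over-tAPX, against 2515 and 2392 in over-tAPX. AT5G44680, of a family of DNA glycosylases that remove damaged bases, had 809.9 and 579.6 in flu, against 2336 and 2599 in WT Col, and 765 and 400.4 in flu over-tAPX, against 2873 and 2931 in over-tAPX. AT2G34620 and AT5G44680 were bright in WT Col, and their dimmest flu-line arrays still had signals of 351 and 400.4.

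For the other 9 genes no role is given here. AT1G13650 had 346 and 277 in flu, against 1557 and 1806 in WT Col, and 165 and 213 in flu over-tAPX, against 1697 and 1509 in over-tAPX, with differences of -2.38 in flu and -2.99 in flu over-tAPX. AT3G18050 had 603 and 748 in flu, against 2499.5 and 2462 in WT Col, and 385 and 405 in flu over-tAPX, against 2245 and 2335 in over-tAPX. Their flu over-tAPX arrays lay below their flu arrays, while the WT Col and over-tAPX arrays of AT1G13650 overlapped. AT5G16030, the brightest member in WT Col, had 873 and 945 in flu, against 3049.6 and 2559.9 in WT Col, and 799.6 and 941 in flu over-tAPX, against 3153 and 3724 in over-tAPX. AT3G06070 had 156 and 153 in flu, against 553 and 405 in WT Col, and 113 and 169 in flu over-tAPX, against 802 and 711 in over-tAPX. In both AT5G16030 and AT3G06070 the over-tAPX arrays were above the WT Col arrays, whereas the arrays of the 2 flu lines overlapped.

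AT4G37240 was dim and uneven, with 70.7 and 9.70 in flu, against 279.9 and 134 in WT Col, and 80.7 and 24.99 in flu over-tAPX, against 222 and 131 in over-tAPX. AT4G37080 was even, with 204 and 244 in flu, against 893 and 999 in WT Col, and 254 and 238 in flu over-tAPX, against 867 and 792 in over-tAPX. Both had the larger size of difference in flu, at -2.16 and -2.004, against -1.57 and -1.69 in flu over-tAPX. AT2G03310 had 74.6 and 78.4 in flu, against 281 and 218 in WT Col, and 88.5 and 48.9 in flu over-tAPX, against 438 and 245 in over-tAPX, with differences of -1.51 in flu and -2.06 in flu over-tAPX. AT3G62630 and AT1G10020 were nearly alike in both comparisons: AT3G62630 differed by -1.66 in flu and -1.65 in flu over-tAPX, and AT1G10020 by -1.57 in flu and -1.57 in flu over-tAPX.

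**Figure D2:**
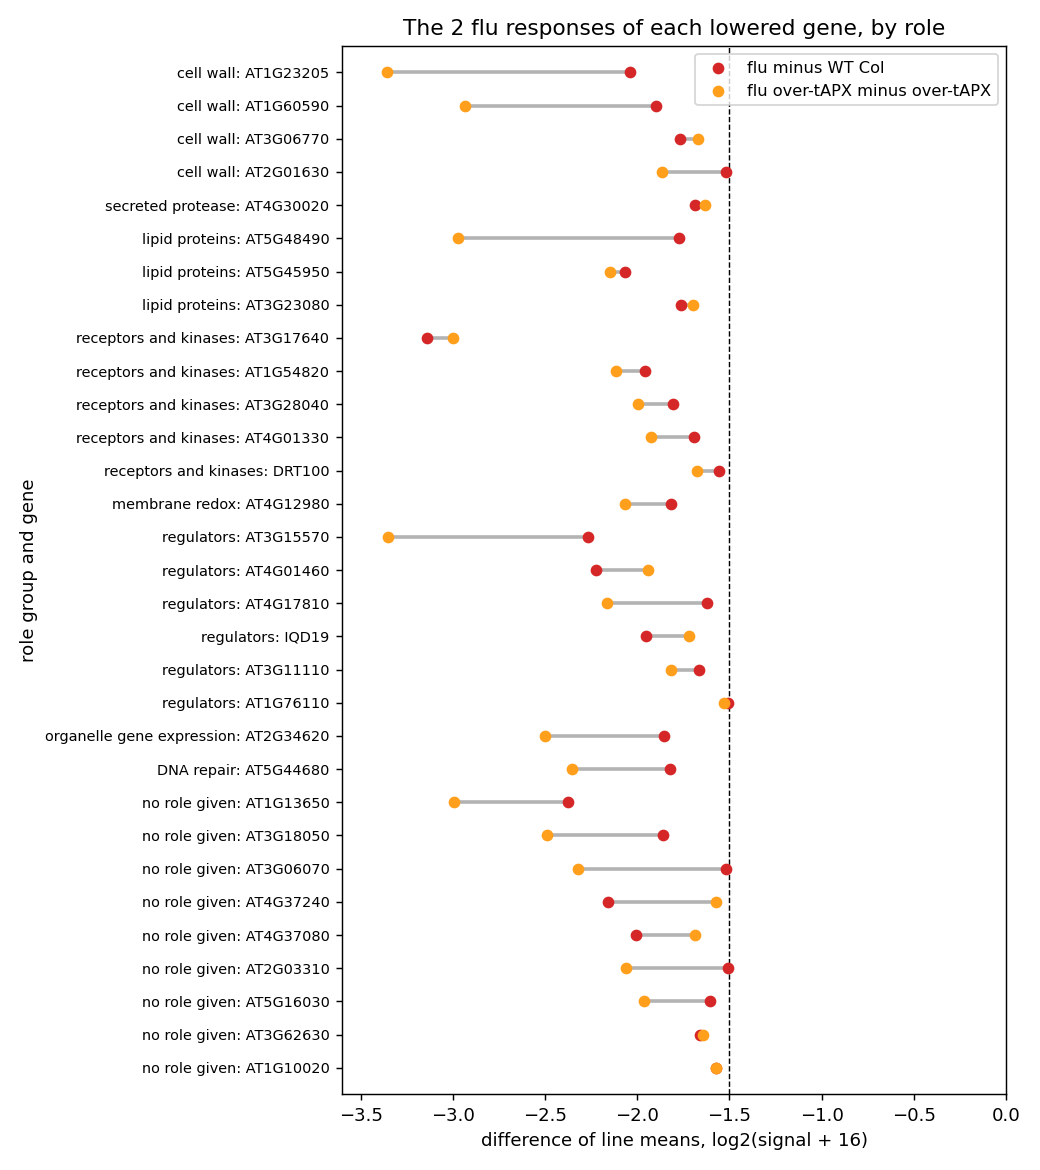
Difference of line means on the log2(signal + 16) scale for each gene, in flu minus WT Col (red) and flu over-tAPX minus over-tAPX (orange), grouped by role, with the threshold of -1.5 dashed. The orange point lies left of the red one in 22 of 31 genes, furthest for AT1G23205, AT5G48490, AT3G15570 and AT1G60590.

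At the threshold, the members just inside were AT1G76110, AT2G03310 and AT2G01630, whose larger differences were -1.51, -1.51 and -1.52. Just outside were AT1G22330 (-1.52 and -1.49), AT1G33170 (-1.62 and -1.48) and AT5G45650 (-1.48 and -1.93). AT1G22330 had 78.2 and 25.1 in flu, against 133 and 198 in WT Col, and 60.4 and 22.5 in flu over-tAPX, against 135 and 138 in over-tAPX. AT1G33170 had 99.8 and 20.3 in flu, against 154 and 217 in WT Col, and 55.6 and 14.97 in flu over-tAPX, against 94.0 and 142 in over-tAPX. Both are dim, with flu arrays far apart from each other. AT5G45650, a subtilase like the member AT4G30020, had 492 and 590.4 in flu, against 1637 and 1439 in WT Col, and 396 and 358 in flu over-tAPX, against 1565 and 1397 in over-tAPX. The edge of the group therefore divides genes with nearly the same values. A further 5 genes had both differences past the threshold but a WT Col mean under 150, and 2, the expansin EXPA8 and the xyloglucan enzyme XTH32, were left out by symbol. With a threshold of -1 in both differences the group would hold 212 genes and with -2 it would hold 5.

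**Figure D3:**
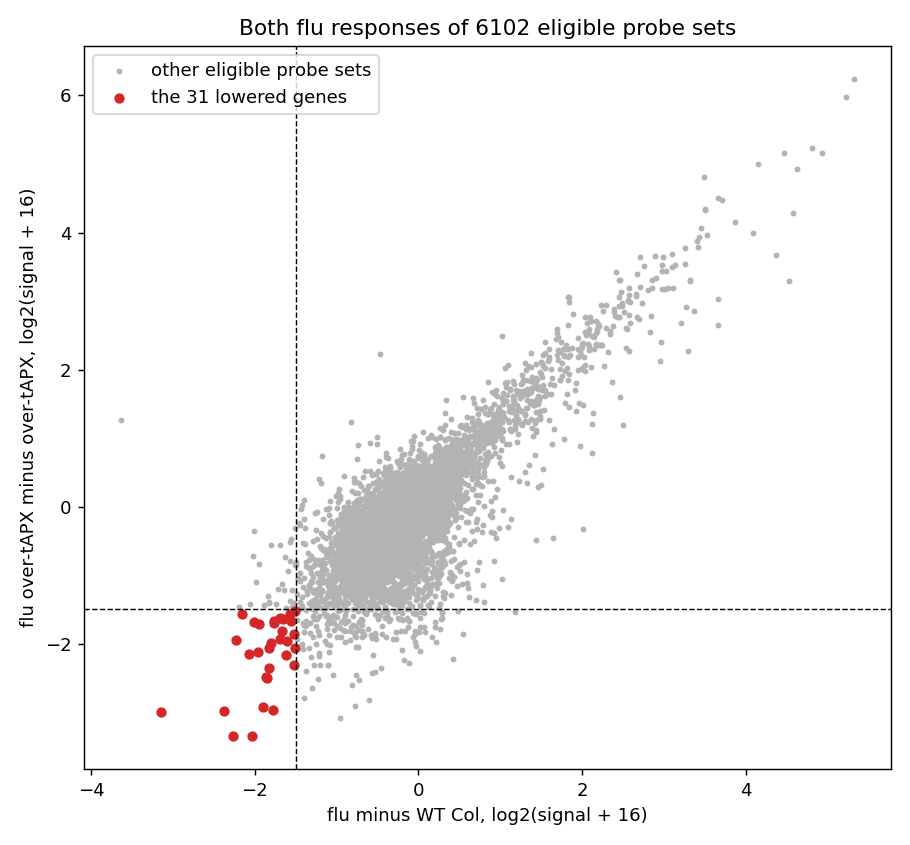
Differences on the log2(signal + 16) scale of 6102 eligible probe sets, with flu minus WT Col on the horizontal axis and flu over-tAPX minus over-tAPX on the vertical axis. The 31 members (red) sit in the lower left corner bounded by the dashed lines at -1.5, and grey points continue without a gap up to those lines.

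Within the group, the second difference was lower than the first in 22 genes and higher in 9, and the difference between them (flu over-tAPX response minus flu response) had a median of -0.19 and a range of -1.32 to 0.58. Over all eligible probe sets its median was 0.04 and 45.8% were below 0. Both responses were cut at -1.5 to choose the members, so this was not tested. The lowest values were those of AT1G23205 (-1.32), AT5G48490 (-1.20) and AT3G15570 (-1.08), and the highest those of AT4G37240 (0.58), AT4G37080 (0.32) and AT4G01460 (0.28). For AT1G23205 and AT3G15570 it lay on the flu side: flu over-tAPX minus flu was -1.19 and -1.09, whereas over-tAPX minus WT Col was 0.13 and -0.01. For AT5G48490 it lay on both sides, with -0.44 and 0.76, the second resting on the dimmer WT Col array.

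The comparison least tied to the rule is that of both lines with the transgene against both lines without it, averaged over flu and non-flu plants. In this balanced layout it would be statistically independent of both differences used to choose the genes, if the 4 lines varied alike. Only the WT Col minimum would then touch it. Among the members the lines did not vary alike. The median size of the difference between replicate arrays was 0.47 in flu and 0.37 in flu over-tAPX, against 0.16 in WT Col and 0.12 in over-tAPX. The comparison is therefore not wholly free of the choice, and its p-values use 1 spread for all lines. It asks whether extra thylakoid peroxidase goes with another level of these genes. All 31 members passed the filter on low signals, 4 of them (AT3G17640, AT4G37240, IQD19 and AT3G11110) through arrays of non-flu lines alone, and were among the 14947 tested probe sets. With limma and Benjamini-Hochberg adjustment over all of these, TAPX alone was called (log2 3.37 ± 0.11, SE; adjusted p = 3.62e-07), which is 0.00669% of tested probe sets, and no member was, the lowest adjusted p of a member being 0.999. At an unadjusted p under 0.05, 9 members were lower with the transgene and 0 were higher, while over all tested probe sets 1.79% were lower and 1.41% higher at that level.

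Without WT Col replicate 2, over-tAPX replicate 2, over-tAPX replicate 1 or flu replicate 1 the count of 9 became 4, 4, 5 or 5. The averaged effect of the 31 genes ran from -0.55 to 0.26 with a median of -0.08, against a median of -0.02 over all tested probe sets, and its standard errors ran from 0.12 to 0.46. The 9 genes were AT3G18050, AT3G15570, AT2G34620, AT3G28040, AT1G60590, AT1G23205, AT1G13650, AT1G54820 and AT1G76110. The lowest by the moderated statistic were AT3G18050 (-0.43 ± 0.12), AT3G15570 (-0.55 ± 0.16), AT2G34620 (-0.47 ± 0.14) and AT3G28040 (-0.46 ± 0.15). The highest were AT3G06070 (0.26 ± 0.17), AT5G16030 (0.11 ± 0.12), DRT100 (0.11 ± 0.14) and AT4G17810 (0.20 ± 0.29). With arrays scaled on their poly-A controls, which moved the median over all tested probe sets to -0.17, 3 of the 31 changed sign: DRT100 was at -0.027, AT5G16030 at -0.032 and AT4G01460 at -0.10.

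**Figure D4:**
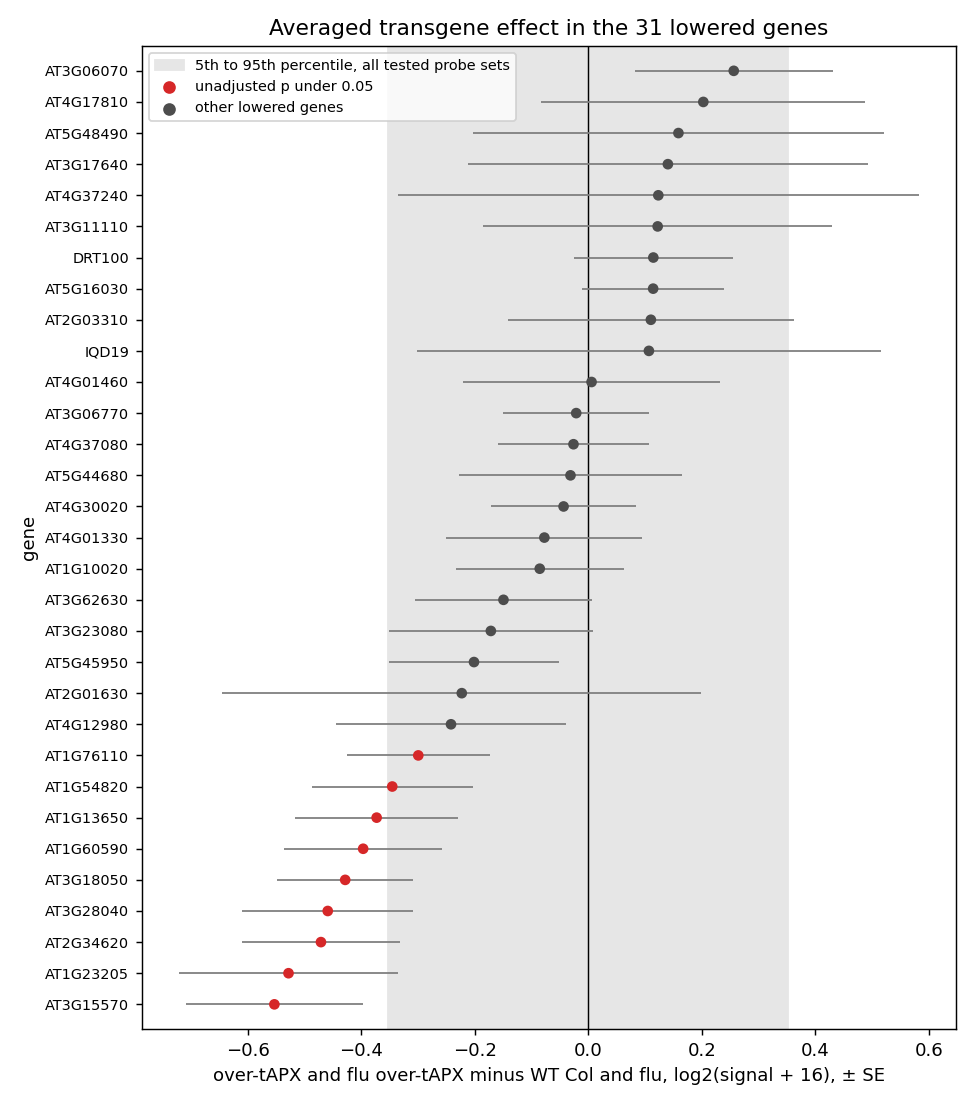
Averaged difference of over-tAPX and flu over-tAPX minus WT Col and flu, on the log2(signal + 16) scale with its standard error, for each of the 31 genes. Red points are the 9 genes with an unadjusted p under 0.05, all left of 0, and the grey band spans the 5th to 95th percentile of all tested probe sets (-0.35 to 0.35).

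The same 9 genes were those whose 2 flu over-tAPX arrays both lay below the 2 flu arrays, and in 0 genes did both lie above, against 14.1% below and 13.6% above over eligible probe sets. Flu over-tAPX minus flu is itself a component of the averaged effect, so this overlap is partly built in and adds no support. Among plants with functional FLU, both over-tAPX arrays lay below both WT Col arrays in 11 members and above in 7, against 27.2% and 18.0% of eligible probe sets. Among flu plants, flu over-tAPX minus flu in AT1G23205, AT3G15570, AT1G13650 and AT1G60590 was -1.19, -1.09, -0.68 and -0.91. In the same genes over-tAPX minus WT Col was 0.13, -0.01, -0.07 and 0.12, with arrays that overlapped. Both transgenic arrays were lower in both pairs for 5 members, against 3.24% of eligible probe sets. These members were AT3G28040, AT1G76110, AT1G54820, AT2G34620 and AT3G18050. Their differences were -0.55, -0.31, -0.43, -0.80 and -0.74 in flu plants. In plants with FLU the differences were -0.37, -0.29, -0.27, -0.15 and -0.11. These single differences share arrays with the choice of members and were not tested.

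Replicate arrays of the members differed more in the flu lines, where the signals were dimmer. The median size of the difference between the 2 arrays of a line was 0.47 in flu and 0.37 in flu over-tAPX, against 0.16 in WT Col and 0.12 in over-tAPX, on the log2(signal + 16) scale. For all eligible probe sets it was 0.25 and 0.34, against 0.20 and 0.15. The widest was 1.97, in flu. A mean signal under 100 in a flu line was found for 10 of the members.

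Other genes were described through lists of the NPH3 and phototropin family, bHLH subfamily Ia, type II phosphatidylinositol 4-kinases and chloroplast thioredoxins, whose genes here are not members. In flu against WT Col, limma called 12.5% of all tested probe sets lower and 11.4% higher, and in flu over-tAPX against over-tAPX 18.5% lower and 15.0% higher. With poly-A scaling the share of calls that were higher was 64.2% in the first comparison, against 47.6% as deposited, and 15.5% in the second, against 44.7%.

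Of 12 other NPH3 family genes tested, 4 were lower in flu and 4 in flu over-tAPX, and 0 were higher in either. Only AT3G19850 and AT1G30440 were called in both. AT3G44820 and AT5G47800 were called in flu alone, and AT3G22104 and AT5G66560 in flu over-tAPX alone. AT3G19850 had 308 and 286 in flu, against 654 and 831 in WT Col, and 211 and 215 in flu over-tAPX, against 678 and 706 in over-tAPX. It fell by 1.27 ± 0.19 (SE; adjusted p = 0.00112) and by 1.63 ± 0.19 (adjusted p = 0.000148) on the log2 scale, in flu and flu over-tAPX. AT1G30440 fell by 1.06 ± 0.23 (adjusted p = 0.00939) in flu and fell by 1.31 ± 0.23 (adjusted p = 0.00201) in flu over-tAPX, the first call being lost without WT Col replicate 2 (-0.84). The median of the 12 was -0.65 in flu and -0.71 in flu over-tAPX, against medians over all tested probe sets of -0.20 and -0.16. AT1G50280, AT3G08660 and AT5G47800 passed the filter through arrays of non-flu lines alone, which favours lower values in the flu lines. These genes enter the medians above. AT5G47800 is 1 of the 4 lower in flu, so that count includes a test that the filter favoured. Neither the count in flu, here or under the alternatives below, nor the medians are used as support. With poly-A scaling 2 and 7 of the 12 were lower. The count in flu was 2 without WT Col replicate 1, either flu array or either over-tAPX array, and 1 without WT Col replicate 2.

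Of 6 genes for chloroplast thioredoxins and the related reductase NTRC, which pass electrons to enzymes of the plastid, 3 were lower in flu and 5 in flu over-tAPX, and 0 were higher. TRXF2 had 992 and 1069 in flu, against 1515 and 1633 in WT Col, and 822 and 741 in flu over-tAPX, against 1855 and 1760.1 in over-tAPX. The thioredoxin ty2 had 2160.2 and 1951 in flu, against 3217 and 2676 in WT Col, and 1289.5 and 1060.1 in flu over-tAPX, against 3439 and 3658 in over-tAPX. Both genes were lower on every array of the flu lines than on any array of the other lines. In flu over-tAPX, ty2 fell by 1.59 ± 0.17 (SE; adjusted p = 7.79e-05) and TRXF2 fell by 1.19 ± 0.16 (adjusted p = 0.000336). In flu, ty2 differed by -0.51 ± 0.17 (adjusted p = 0.0558, and 0.0383 with the replicate block) and TRXF2 by -0.60 ± 0.16 (adjusted p = 0.0221). None of the 6 reached -1.5 in flu, which kept ty2 out of the group. The count of 3 in flu became 0 with poly-A scaling or without either WT Col or either over-tAPX array. It became 1 with no filter, with no variance trend or without either flu array. It became 5 with the replicate block, which added ty2 and THX, and also with quantile normalization, with the 60th percentile filter or without either flu over-tAPX array. The count of 5 in flu over-tAPX became 3 without over-tAPX replicate 1.

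The other lists had few measured genes. Of 4 type II phosphatidylinositol 4-kinases, AT1G26270 and AT1G64460 were higher in both comparisons, by 0.80 ± 0.20 and 1.06 ± 0.27 in flu (SE; adjusted p = 0.0179 and 0.0203) and by 1.16 ± 0.20 and 1.64 ± 0.27 in flu over-tAPX (adjusted p = 0.00166 and 0.00131). Both calls in flu were lost without either WT Col array and without flu replicate 2, that of AT1G64460 also without flu replicate 1 or with no filter, and the call of AT1G26270 in flu over-tAPX was lost with poly-A scaling. AT5G24240 had 16.4 and 7.32 in flu, against 247 and 427 in WT Col. It had 33.8 and 59.8 in flu over-tAPX, against 10.8 and 8.32 in over-tAPX. Its flu difference of -3.64 was below that of every member, and its flu over-tAPX difference of 1.27 places it outside the group. It passed the filter through the 2 WT Col arrays alone, so its tests are not used here. Of 2 tested relatives of AT4G01460 in bHLH subfamily Ia, FAMA (AT3G24140), a regulator of guard cell formation, had 269.7 and 238 in flu, against 264 and 254 in WT Col, and 251 and 380.5 in flu over-tAPX, against 259 and 262 in over-tAPX. Its adjusted p was 0.938 in flu and 0.482 in flu over-tAPX. The second, AT3G61950, had 40.9 and 11.1 in flu, against 16.6 and 12.4 in WT Col, and 5.50 and 6.17 in flu over-tAPX, against 88.1 and 86.5 in over-tAPX. AT3G61950 passed the filter on low signals through the 2 over-tAPX arrays alone, so its test is not used here. HAT2, a homeodomain factor induced by auxin and the tested one of 17 listed genes of auxin transport and growth, had 246 and 260.1 in flu, against 467 and 452 in WT Col, and 202 and 219.6 in flu over-tAPX, against 456 and 525 in over-tAPX. It fell by 1.16 ± 0.19 in flu over-tAPX (adjusted p = 0.00129), and by 0.82 ± 0.19 in flu (adjusted p = 0.0124), a call lost with poly-A scaling and without either WT Col array or flu replicate 1. The clock gene GI and BCAT4 of glucosinolate synthesis, each the tested one of 14 listed, were not called, with adjusted p of 0.267 and 0.167 in flu and of 0.266 and 0.116 in flu over-tAPX. The list of genes induced by darkness and sugar starvation had 0 measured.

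By position, the 31 genes were spread over all 5 chromosomes, with 6, 3, 10, 8 and 4 on chromosomes 1 to 5. The eligible probe sets with a locus on these chromosomes were divided as 26.1%, 14.5%, 20.3%, 14.5% and 24.5%. No 2 members were adjacent among protein-coding genes of the RefSeq annotation. The closest were AT4G01330 and AT4G01460 with 15 genes between them, and AT4G37080 and AT4G37240 with 17. Of 62 adjacent genes, 33 were measured and 17 of those had a WT Col mean of at least 150. None of these 17 had both differences at -1.5 or below, and their medians were -0.38 in flu and -0.52 in flu over-tAPX, against -0.27 and -0.26 over eligible probe sets. AT1G13640, the phosphatidylinositol 4-kinase gene next to AT1G13650, differed by -0.10 and 0.20.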

How the data were processed

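RNA of 4 lines (5 µg for each of 8 ATH1 arrays) was measured. The deposited intensity values came from MAS5, which the submitters' processing notes name without a version, and their size shows an unlogged scale. The mean of the central 96% of signals was 499.8 on every array in the deposited values, so each array had been scaled to 1 target. Of 22810 probe sets, 64 are controls, 13513 name 1 gene, 503 several and 8794 none in the platform annotation used. Symbols of 13436 were updated through RefSeq gene IDs, and the rest keep the annotation's name. No column was left unused.

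Signals were taken to log2(signal + 16). Log2 differences of such values understate changes of dim genes. Differences of line means (2 arrays a line) chose the members. The tests used limma 3.58.1 in R 4.3.3 (lmFit on all 8 arrays with a mean for each line, eBayes with a variance trend, two-sided) on 14947 probe sets above the 40th percentile of their array on at least 2 arrays, with Benjamini-Hochberg adjustment and a threshold of 0.05. The model left 4 residual degrees of freedom. The small number of arrays limits the precision, and as each array holds pooled plants, p-values measure the spread between pools. A p-value under an unadjusted 0.05 is not a call.

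The members and lists were chosen with earlier results of these data known. Values per array are given for 3 marker genes (AT3G15570, AT1G13650, AT4G01460), for the 12 lowest by the mean of both differences, for those nearest the threshold, for the extremes of the averaged transgene effect and of the difference between responses, for the 3 brightest in WT Col, and for up to 4 of each role group. AT3G11110 meets none of these rules and was added to them. The planned sorting into roles by words of gene descriptions could not be applied, because the RefSeq table used has no descriptions. Roles were assigned by hand from general knowledge after the members were known. Promoter and protein sequences were not analysed here. Pseudocount, array scaling, filter, variance trend, replicate block, thresholds and each array left out were tried as alternatives.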

Additional observations from a re-analysis of the deposited data

How the results depend on the processing

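The number of members, 31 at the stated choices, was 44 with a pseudocount of 1 and 17 with 64, 212 with a threshold of -1 and 5 with -2, 25 with a WT Col minimum of 300 and 36 with none. Scaling on the poly-A controls gave 39, of which 26 were among the 31, and quantile normalization gave 31, of which 27 were. Leaving out 1 array gave 31 to 38. The poly-A controls averaged 9.02 and 8.71 (log2) in flu over-tAPX, against 8.24 to 8.52 on the other arrays, so this scaling moved the median difference of all tested probe sets to -0.74 in flu over-tAPX against over-tAPX (from -0.16) and to -0.15 in flu against WT Col (from -0.20). It called 899 probe sets lower in flu, and 1362 higher and 7408 lower in flu over-tAPX. Without 1 array the counts ran from 1246 to 1913 higher and 525 to 2765 lower in flu, and from 1591 to 2341 higher and 1235 to 3015 lower in flu over-tAPX. The lowest, 525, was without WT Col replicate 2, and 1235 was without over-tAPX replicate 2. The averaged transgene effect called TAPX alone under every alternative run, and its members lower at an unadjusted p under 0.05 numbered 4 to 9 without 1 array and 9 under the other settings. Over all 14947 tested probe sets, 759 were lower at that level with poly-A scaling, against 267 as deposited. The unchanged 9 with poly-A scaling thus stands beside a larger background. The sign of the averaged over-tAPX effect turned in 3 of the 31 members with poly-A scaling, in 1 with a pseudocount of 64 and in 0 to 9 without 1 array (9 without flu replicate 2). Among the 8 with the highest or lowest statistic it turned for DRT100 (-0.027) and AT5G16030 (-0.032) with poly-A scaling, and without 1 array for AT4G17810 (range -0.13 to 0.54) and DRT100 (-0.012 to 0.24), lowest without flu over-tAPX replicate 1 and flu replicate 2. The cause was not tested. Of the differences of single members under alternatives, 695 moved by less than the replicate spread and 49 by more, with 0 changes of sign. Leaving out 1 array cannot move a difference by more than this spread, so those entries fell among the 695 by construction. All 49 came from the other pseudocounts, poly-A scaling or quantile normalization, and the 2 counts together do not measure robustness.

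The replicate numbers of the titles were checked for pairing: deviations of same-numbered arrays correlated by 0.09 (WT Col and flu), -0.04 (WT Col and over-tAPX), 0.00 (flu and over-tAPX), 0.19 (WT Col and flu over-tAPX), 0.35 (flu and flu over-tAPX) and -0.08 (over-tAPX and flu over-tAPX), so that not every pair correlated above the 0.1 set for pairing. The labels do not say what the numbers mark, and whether they pair the arrays was not settled. With the replicate block, 1802 probe sets were higher and 2161 lower in flu (1701 and 1869 without it), 2342 were higher and 3179 lower in flu over-tAPX (2243 and 2771 without it), and the averaged transgene effect kept 1 call and 9 members lower at the unadjusted level. Dim signals, 2 arrays a line and pooled plants limit what small differences these data can show.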
